A study of Homo sapiens with 12 samples.

Results

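THP1 cells co-cultured with control ECs were compared with THP1 mono-culture, using the 6 libraries of these groups among the 12 libraries of the series. THP1 is an established human monocytic leukaemia line, and the ECs were human umbilical vein endothelial cells (HUVECs). The genes compared were those with at least 10 counts in total over the 12 libraries, which was 25873 of the 58735 genes in the count table. For co-culture, THP1 cells were placed in the upper chamber of a transwell insert with pores of 1 µm, with vehicle-treated (DMSO) control ECs attached to the well underneath, so that secreted material could pass between the layers. For mono-culture, THP1 cells were kept for the same 24 h in the same complete endothelial medium without ECs. THP1 cells of every group were then taken off the inserts and given 100 ng/ml of lipopolysaccharide (LPS) for 2 h, after which RNA was taken, and neither group shows an unstimulated state. The other libraries came from co-cultures with senECs, ECs made senescent with etoposide, and with senECs that had also received EGCG, a catechin of green tea. Each group had 3 libraries. Nothing in the sample labels says that these came from separate cultures, so the p-values below measure the spread between these libraries, which may be technical.

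Monocytes patrol the vessel wall and respond to factors that the endothelium secretes, among them cytokines, growth factors and lipid mediators. Cytokines of the interleukin-6 family signal through gp130 and the transcription factor STAT3. LPS, a component of the wall of Gram-negative bacteria, signals through CD14 and TLR4 to NF-κB and switches on a set of inflammatory genes that includes IL1B, TNF and CXCL8. The comparison asks how a day of exposure to healthy ECs changed the transcripts of THP1 cells that were afterwards stimulated with LPS.

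Total counts in the 6 libraries ranged from 15439836 to 22092600, and a gene without a count could still be present at 0.136 to 0.194 CPM (counts scaled to a common library size by TMM), a limit of 3 counts that covers counting error only. Control EC replicate 2 stood apart in histone and mitochondrial ribosomal RNAs, a feature looked for after the values were seen. Its 63 histone cluster genes summed to 185.0 CPM, against 41.8 to 61.4 CPM in the other 5 libraries, and its 2 mitochondrial ribosomal RNAs to 10900 CPM, against 3144 to 4159 CPM. Whether this bears on other genes was not tested, and the calls that held without this library are named below.

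Markers of the monocytic line were present in both groups. The summed level of 22 tested monocyte markers was 4977 to 5271 CPM in mono-culture and 5232 to 5846 CPM with control ECs. The granule genes AZU1, PRTN3 and ELANE led the list, the myeloid regulators SPI1 and CEBPA were abundant in every library, and FCN1 had too few counts to be tested. None of the 22 passed edgeR's or DESeq2's test, while 4 were higher and 1 was lower at an unadjusted p under 0.05. CD14, the LPS co-receptor, was at 5.91, 9.90 and 11.0 CPM in mono-culture and at 12.4, 18.0 and 26.2 CPM with control ECs. All 3 co-culture libraries were above the mono-culture libraries, but the difference missed the threshold (log2 fold change 1.07, adjusted p = 0.688). CD14 was called higher in both fits with the replicate number as a block, given below.

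Endothelial markers were listed to check for RNA of the ECs, and they were not uniformly low. The 17 endothelial markers that could be tested summed with the others to 171.6 to 197.7 CPM in mono-culture and to 173.7 to 200.5 CPM with control ECs, most of it from PECAM1, which monocytes also express (129.3 to 160.5 CPM). EGFL7 (17.8 to 22.3 CPM), FLT1 (6.16 to 17.3 CPM) and NOS3 (2.61 to 4.41 CPM) were also present in all 6 libraries. CDH5, the cadherin of endothelial junctions, had 1 count in mono-culture replicate 1 and 0 counts in the other 5 libraries, and SOX17 and MMRN1 had 0 counts in all 6. None of the 17 was called by edgeR or DESeq2, and 1 was higher at an unadjusted p under 0.05. That was ERG, a transcription factor, at 0.186, 0.592 and 0.441 CPM in mono-culture and 0.960, 1.63 and 0.945 CPM with control ECs (adjusted p = 0.647). Its part in the results was not tested. VWF lay at 0.808 to 2.20 CPM in mono-culture and 0.672 to 1.36 CPM with control ECs.

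At an adjusted p under 0.05 in edgeR's quasi-likelihood test, 37 of 25873 genes were called (0.143% of all genes tested). Of these, 22 genes rose with control ECs (0.085%) and 15 fell (0.058%). In all 37, the 3 co-culture libraries and the 3 mono-culture libraries did not overlap. Among all tested genes, 6.25% had the co-culture libraries all above and 6.51% had them all below. DESeq2 called 120 genes (0.464%), 60 in each direction, and its calls held all 37. With no filter on low counts edgeR called 223 genes, 129 higher and 94 lower, and in a fit of only the 6 libraries 68, 33 higher and 35 lower. With the replicate number as a block it called 469 genes in 12 libraries and 647 in 6. The named genes called only there are given below. An unadjusted p under 0.05 was found for 1687 genes (6.52%). Changes ran from 0.54 to 2.14 on the log2 scale among the genes that rose and from -0.60 to -1.65 among those that fell, and exceeded 2-fold in 8 and 5 genes.

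**Figure D1:**
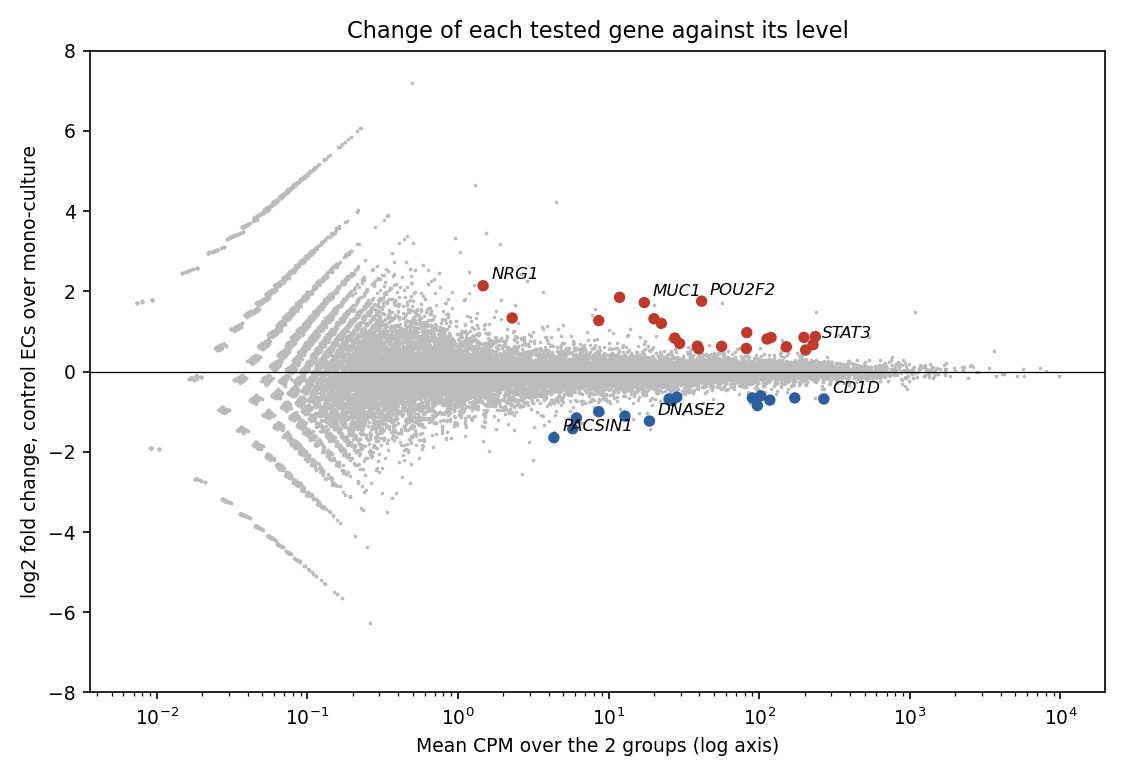
Each point is a tested gene, with its mean CPM over the 2 groups on a log axis and its log2 fold change, control ECs over mono-culture, on the vertical axis. Red points are the 22 genes that rose and blue points the 15 that fell at an adjusted p under 0.05. The widest spread, at the left, is among genes with few counts.

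The calls that held in all 6 fits that each left out 1 of these libraries were 10 genes, all higher with control ECs: POU2F2, CLU, MUC1, LAP3, PPP1R27, HSD11B1, FAM129A, NACC2, METTL7B and PARP9. Without control EC replicate 2, 14 genes were called, these 10 with STAT3, DUSP3, DNASE2 and CD1D. Without mono-culture replicate 2, 11 were called, the 10 with DUSP3. A bulk library cannot tell a change in every cell from a change in a share of the cells.

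**Figure D2:**
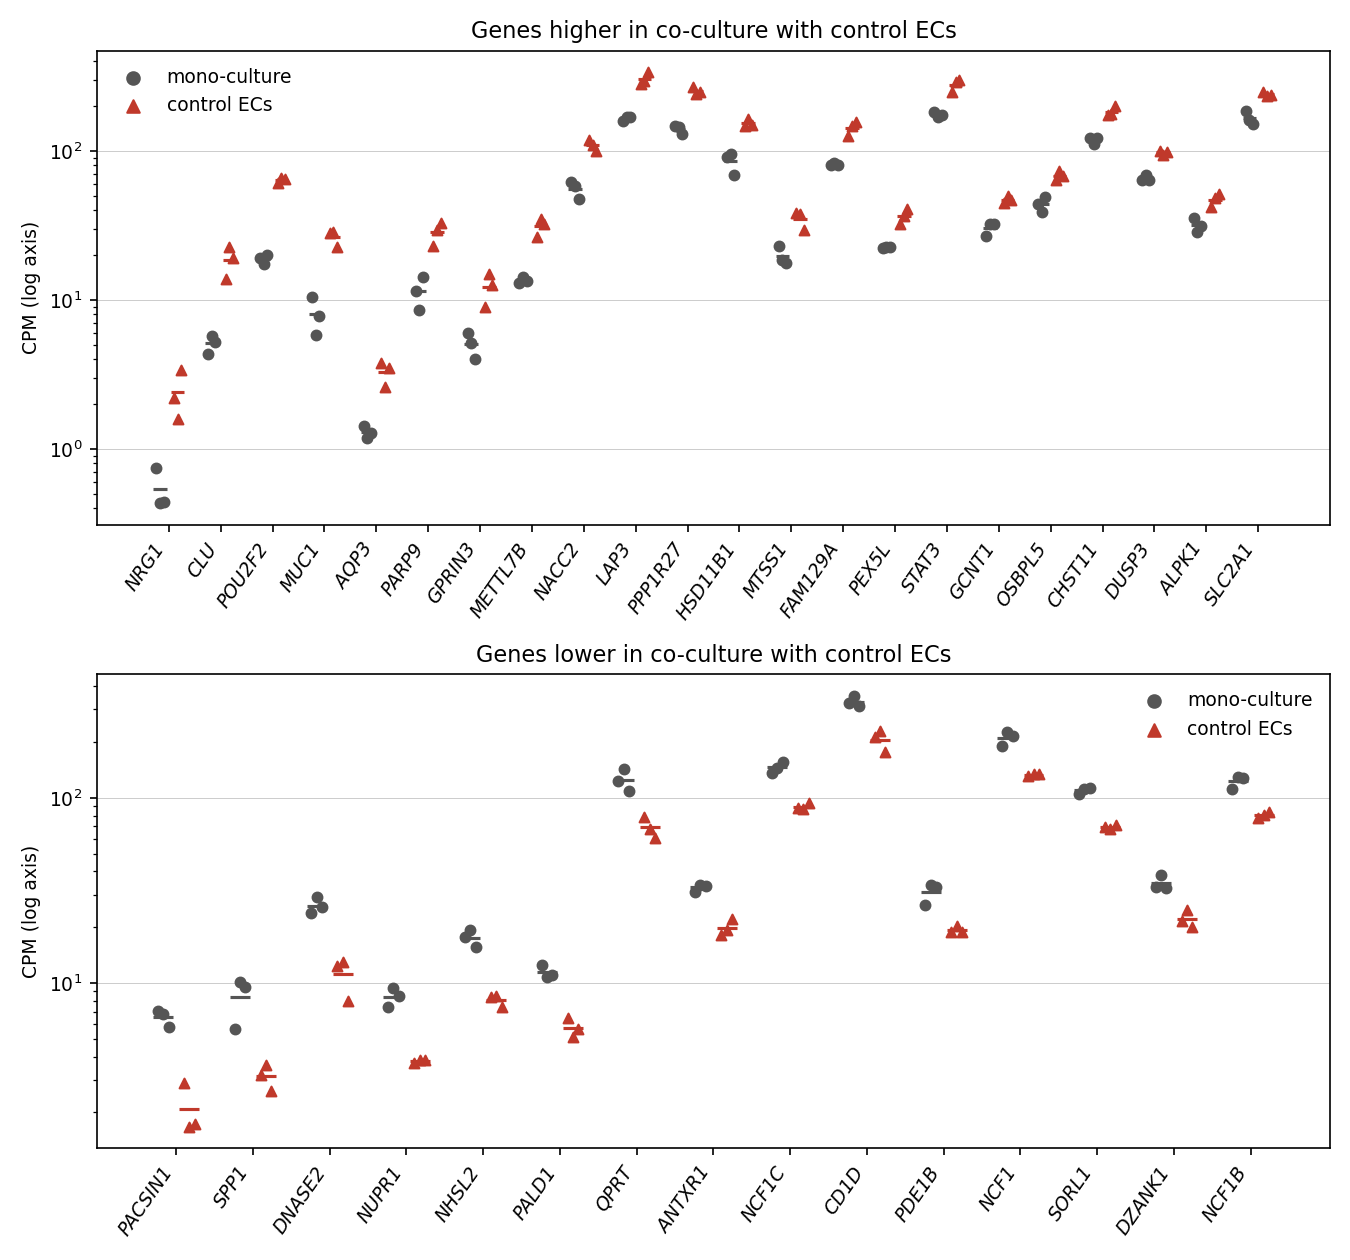
Level of each called gene in the 3 mono-culture libraries (grey circles) and the 3 control EC libraries (red triangles), in CPM on a log axis, with short lines at the group means. The upper panel holds the 22 genes that rose, the lower panel the 15 that fell, each ordered by size of change, and in none do the groups overlap.

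Among transcriptional regulators, POU2F2 showed the lowest p-value of all genes tested. It encodes Oct-2, an octamer-binding factor best known from B cells (ENSG00000028277, chr19:42086110-42196585, minus strand, GRCh38). Its level was 19.2, 17.4 and 20.2 CPM in the mono-culture libraries and 60.7, 65.8 and 65.1 CPM in those with control ECs. Each group was narrow and the gap between them wide, a 3.38-fold rise (log2 fold change 1.76 ± 0.12 SE, adjusted p = 1.16e-07). STAT3, the factor downstream of gp130 (ENSG00000168610, chr17:42313324-42388568, minus strand), was measured at 182.3, 169.6 and 175.4 CPM in mono-culture and at 250.2, 290.8 and 298.0 CPM with control ECs. The lowest co-culture library was thus well above the highest mono-culture library, and STAT3 rose 1.59-fold (log2 fold change 0.67 ± 0.10, adjusted p = 0.00476). This call was lost only without mono-culture replicate 2, at an adjusted p of 0.0524. NACC2, a repressor with a BTB domain, rose from a mean of 55.8 CPM ± 7.18 (SD, n = 3) to 109.4 CPM ± 9.83 (log2 fold change 0.97, adjusted p = 0.00279).

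Genes of secreted and surface proteins were among the larger rises. CLU encodes clusterin, a secreted chaperone that also restrains the terminal complement complex. Its 3 mono-culture libraries held 4.35, 5.76 and 5.23 CPM and its 3 co-culture libraries 13.7, 22.7 and 19.1 CPM. The co-culture values varied among themselves, yet the lowest was more than 2-fold above the highest without ECs, and the rise was 3.61-fold (log2 fold change 1.85 ± 0.24, adjusted p = 0.00165). MUC1, a transmembrane mucin, was at 10.5, 5.81 and 7.82 CPM in mono-culture and at 28.1, 28.4 and 22.8 CPM with control ECs. It rose 3.30-fold (log2 fold change 1.72 ± 0.21, adjusted p = 0.00124).

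NRG1 and AQP3 were low in every library and sat at the threshold. NRG1, which encodes the ErbB ligand neuregulin 1, had 12, 8 and 8 counts in mono-culture and 46, 36 and 61 counts with control ECs, for the largest change of any called gene (log2 fold change 2.14 ± 0.42, adjusted p = 0.0499). AQP3, a channel for water and glycerol, was at 1.43, 1.18 and 1.27 CPM in mono-culture and 3.74, 2.59 and 3.50 CPM with control ECs (log2 fold change 1.34, adjusted p = 0.0499). Neither call held when any of the 6 libraries was left out, with adjusted p up to 0.421 for NRG1 and 0.388 for AQP3.

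Several enzymes rose. HSD11B1 reactivates cortisol from inactive cortisone inside cells (ENSG00000117594, chr1:209686178-209734950, plus strand). It was at 90.8, 96.2 and 69.3 CPM in mono-culture and at 148.3, 163.9 and 149.8 CPM with control ECs. Every co-culture library was far above every mono-culture library, for a 1.80-fold rise (log2 fold change 0.85 ± 0.13, adjusted p = 0.00516). LAP3, a leucine aminopeptidase that trims peptides in the cytosol, went from 160.1, 170.4 and 168.9 CPM to 280.9, 296.3 and 338.1 CPM (1.83-fold, adjusted p = 0.00165). PARP9, which works with the ubiquitin ligase DTX3L in interferon responses, went from 11.4, 8.61 and 14.3 CPM to 23.1, 29.7 and 32.8 CPM (2.49-fold, adjusted p = 0.00268). The exons of PARP9 share 217 bases with DTX3L on the opposite strand, and whether the counting used strand is not given in the sources used here, so part of these reads may belong to DTX3L. METTL7B, a methyltransferase, rose 2.30-fold from a mean of 13.5 CPM to 31.2 CPM (adjusted p = 0.002), with 44 bases shared with ITGA7 in the same way.

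Glucose uptake and sugar chains were also represented. SLC2A1, the glucose transporter GLUT1, was at 185.7, 160.8 and 150.8 CPM in mono-culture and 248.7, 234.8 and 238.9 CPM with control ECs, a 1.45-fold rise that is the smallest among the called genes (log2 fold change 0.54 ± 0.10, adjusted p = 0.0231). GCNT1, which branches O-glycans and helps to build selectin ligands, rose 1.55-fold (adjusted p = 0.0152), and CHST11, a chondroitin sulfotransferase, 1.54-fold (adjusted p = 0.0231). OSBPL5, a lipid transfer protein at contacts of the endoplasmic reticulum, rose 1.55-fold (adjusted p = 0.0228). None of these 4 calls held in all 6 fits without 1 library. Adjusted p went up to 0.205 for SLC2A1, 0.114 for GCNT1, 0.212 for CHST11 and 0.217 for OSBPL5.

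The remaining genes that rose have varied roles. PPP1R27, a regulatory subunit of protein phosphatase 1, went from 147.6, 144.6 and 131.0 CPM to 270.4, 242.9 and 250.7 CPM (1.80-fold, adjusted p = 0.00207). Per length of its exons it was the most abundant gene among those that rose, at a mean of 97.4 FPKM in mono-culture and 175.8 FPKM with control ECs. FAM129A, or Niban, a stress-responsive protein, was at 80.6 to 83.4 CPM in mono-culture and at 125.8 to 157.6 CPM with control ECs (1.76-fold, adjusted p = 0.00298). The phosphatase DUSP3 rose 1.49-fold (adjusted p = 0.00881) and ALPK1, a kinase that senses bacterial sugars, 1.48-fold (adjusted p = 0.0499). MTSS1, which binds actin and curved membrane, rose 1.78-fold (adjusted p = 0.0258), GPRIN3 2.42-fold (adjusted p = 0.0142) and PEX5L 1.63-fold (adjusted p = 0.0258). The exons of MTSS1 share 677 bases with NDUFB9 and those of ALPK1 122 bases with TIFA on the opposite strand, both neighbours with more counts. The calls of DUSP3, ALPK1, MTSS1, GPRIN3 and PEX5L were each lost without at least 1 library (adjusted p up to 0.0679, 0.421, 0.241, 0.133 and 0.186). GCNT1, OSBPL5, CHST11, DUSP3 and ALPK1 lie outside the rule for named genes and were included after their values were seen.

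Promoter windows are shown for POU2F2, the gene with the lowest p-value, and for 3 genes that rose and hold a searched motif. They come from RefSeq (GRCh38.p14). The search covered the whole window around each start site, and the part before the first annotated exon is printed. A window was found for 18 of the 22 genes that rose and 12 of the 15 that fell. The motifs were TTCNNNGAA, the letters of a STAT site, the core of an interferon response element (GAAA, any 2 bases, GAAA), and ATTTGCAT, the octamer bound by Oct-2, searched on both strands. Capitals mark a match, in LAP3 on the reverse strand. The window of POU2F2 (chr19:42132479-42132696, minus strand) holds none of the 3 and starts at a site inside the longer GENCODE gene model, as does that of ALPK1 (chr4:112297119-112297342, plus strand). The others are DUSP3 (chr17:43778989-43779227, minus strand) and LAP3 (chr4:17576948-17577191, plus strand).
POU2F2: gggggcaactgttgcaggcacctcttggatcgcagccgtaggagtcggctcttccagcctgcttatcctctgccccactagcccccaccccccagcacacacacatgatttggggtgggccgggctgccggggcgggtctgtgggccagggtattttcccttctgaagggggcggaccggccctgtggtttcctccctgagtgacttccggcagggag
ALPK1: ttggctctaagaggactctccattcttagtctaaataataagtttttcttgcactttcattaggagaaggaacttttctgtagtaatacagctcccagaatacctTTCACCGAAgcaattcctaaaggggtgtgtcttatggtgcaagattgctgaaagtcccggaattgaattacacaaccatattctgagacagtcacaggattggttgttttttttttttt
DUSP3: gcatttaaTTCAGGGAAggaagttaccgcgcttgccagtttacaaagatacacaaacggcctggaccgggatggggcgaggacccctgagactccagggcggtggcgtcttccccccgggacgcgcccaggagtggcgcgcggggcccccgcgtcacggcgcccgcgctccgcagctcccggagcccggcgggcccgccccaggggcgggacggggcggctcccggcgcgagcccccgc
LAP3: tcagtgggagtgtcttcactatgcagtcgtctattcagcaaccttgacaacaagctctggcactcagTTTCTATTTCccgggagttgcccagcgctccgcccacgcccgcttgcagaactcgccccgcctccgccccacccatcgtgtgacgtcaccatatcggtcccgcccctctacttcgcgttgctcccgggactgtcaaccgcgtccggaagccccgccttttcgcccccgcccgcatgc
TTCNNNGAA was found in 3 of 18 windows of genes that rose (16.7%, DUSP3, ALPK1 and PEX5L) and in 1 of 12 of genes that fell (8.33%, PDE1B), against 8.87% of the 13351 tested genes with a window and 7.66% of all 35116 windows. The interferon element was found in 3 of 18 (LAP3, PEX5L and PARP9) and 1 of 12 (NCF1), against 4.04% and 3.57%. ATTTGCAT was found in 0 windows of either set, against 2.05% and 1.77%. With so few windows these shares are descriptions only, and a match is not shown to be a bound site.

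Among the genes that fell, DNASE2 had the lowest p-value. It encodes the acid nuclease that digests DNA in lysosomes (ENSG00000105612, chr19:12875211-12881468, minus strand). Its mono-culture libraries held 23.9, 29.1 and 25.6 CPM and its co-culture libraries 12.3, 13.1 and 7.95 CPM. The groups were well apart, and the level in mono-culture was 2.35-fold that with control ECs (log2 fold change -1.23 ± 0.19, adjusted p = 0.00516). The call was lost without mono-culture replicate 2 (adjusted p = 0.066) and held in the other 5 fits without 1 library. No other gene that fell held in as many.

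Genes of antigen presentation, the oxidative burst and the matrix were among those that fell. CD1D, which presents lipids to natural killer T cells (ENSG00000158473, chr1:158179947-158184896, plus strand), was at 325.4, 355.1 and 311.7 CPM in mono-culture and at 211.8, 230.0 and 176.2 CPM with control ECs. Per exon length it was the most abundant of the genes that fell, at 146.8 and 91.4 FPKM, and its level in mono-culture was 1.61-fold that with control ECs (log2 fold change -0.68 ± 0.11, adjusted p = 0.0116). NCF1, the p47phox subunit of the phagocyte NADPH oxidase, was at 189.5, 226.2 and 215.8 CPM in mono-culture and at 130.7, 134.9 and 134.9 CPM with control ECs (log2 fold change -0.66 ± 0.10, adjusted p = 0.00849). Its pseudogenes NCF1B and NCF1C fell as well (log2 fold changes -0.60 and -0.71, adjusted p = 0.0333 and 0.0105). The 3 are near-identical copies on chromosome 7, so how reads were divided among them is uncertain and they count as a single observation. SPP1, which encodes the secreted matrix protein osteopontin, was at 5.66, 10.1 and 9.53 CPM in mono-culture and at 3.17, 3.60 and 2.61 CPM with control ECs. The groups were apart, with 1 mono-culture library well below the other pair, and SPP1 sat at the threshold (log2 fold change -1.42 ± 0.28, adjusted p = 0.0499).

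Metabolic and sorting genes also fell. QPRT, the enzyme that leads quinolinate from tryptophan into NAD, was at 122.8, 142.7 and 109.2 CPM in mono-culture and at 79.1, 68.1 and 60.9 CPM with control ECs, a level 1.80-fold higher without ECs (log2 fold change -0.85 ± 0.14, adjusted p = 0.0133). SORL1, a sorting receptor between Golgi and endosomes, had a mean of 110.1 CPM ± 4.03 without ECs and 69.9 CPM ± 1.84 with control ECs (SD, n = 3 each), with a log2 fold change of -0.66 and an adjusted p of 0.0114. PDE1B, a calmodulin-dependent phosphodiesterase of cyclic nucleotides, fell by 0.68 in log2 (adjusted p = 0.0422). ANTXR1, a collagen-binding receptor also used by anthrax toxin, was at 30.9 to 34.0 CPM in mono-culture and at 18.1 to 22.3 CPM with control ECs (log2 fold change -0.72, adjusted p = 0.00977).

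The lower-abundance genes that fell included NUPR1, a stress-induced nuclear protein, at 7.40, 9.37 and 8.54 CPM in mono-culture and 3.69, 3.82 and 3.83 CPM with control ECs (log2 fold change -1.16, adjusted p = 0.014). PACSIN1, which bends membranes in endocytosis, had the largest fall, from a mean of 6.57 CPM ± 0.692 to 2.09 CPM ± 0.683 (SD, n = 3, log2 fold change -1.65 ± 0.31, adjusted p = 0.0326). NHSL2, PALD1 and DZANK1 fell by 1.11, 1.00 and 0.64 in log2 (adjusted p = 0.0262, 0.0337 and 0.0422). Of the 14 genes that fell other than DNASE2, each was lost in at least 3 of the 6 fits without 1 library. Control EC replicate 2 was among those libraries for all but CD1D. Adjusted p reached 0.125 for CD1D, 0.0797 for NCF1, 0.085 for NCF1C, 0.256 for NCF1B, 0.421 for SPP1, 0.146 for QPRT, 0.106 for SORL1, 0.388 for PDE1B, 0.085 for ANTXR1, 0.133 for NUPR1, 0.229 for PACSIN1, 0.241 for NHSL2, 0.255 for PALD1 and 0.421 for DZANK1.

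The cytokine and chemokine genes that LPS induces did not differ detectably between the groups in the fit without a replicate term. None of 23 tested genes passed either edgeR or DESeq2, and 1 was higher and 1 was lower at an unadjusted p under 0.05. The libraries overlapped for 21 of them, and for 22572 of all 25873 genes tested, so this count is not particular to the cytokines. The median log2 fold change was 0.04, against 0.00 over all genes. Within a group the highest library exceeded the lowest by 1.3-fold to 16.2-fold in these genes (median 2.61-fold), against a median of 1.23-fold over genes with a mean of at least 1 CPM. IL1B, which encodes interleukin-1β, was at 130.8, 270.1 and 611.4 CPM in mono-culture and 142.5, 230.7 and 671.8 CPM with control ECs. Both groups thus covered the same range, and in each the level rose from replicate 1 to replicate 3. The 95% confidence interval of the log2 fold change, from the fit without a replicate term, went from -1.26 to 1.35 around 0.05. For 6 of the 23 genes the interval stayed within a 2-fold change in either direction, and for 12527 of all 25873 genes tested.

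IL1B is among 5 genes measured by qPCR in this work, and in the other 4 the groups overlapped as well. CXCL8, which encodes interleukin-8, was at 280.4, 569.2 and 613.4 CPM in mono-culture and 242.6, 406.0 and 704.3 CPM with control ECs (log2 fold change -0.11, interval -0.98 to 0.76). IL23A, a subunit of interleukin-23, was at 11.1, 23.6 and 32.8 CPM in mono-culture and 10.5, 15.6 and 28.3 CPM with control ECs (log2 fold change -0.32, interval -1.24 to 0.60). IL12B, the subunit shared by interleukin-12 and interleukin-23, lay between 0.720 and 3.89 CPM in the 6 libraries (log2 fold change -0.18, interval -1.26 to 0.89). IL6 had 2, 7 and 6 counts in mono-culture and 1, 5 and 14 counts with control ECs, close to the floor, and no difference could have been seen at this depth short of a several-fold one (interval -1.56 to 2.12). Adjusted p was 0.978 or higher for each of the 5.

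TNF, at 60.9, 78.7 and 142.7 CPM in mono-culture and 65.7, 59.9 and 107.5 CPM with control ECs, did not pass either (log2 fold change -0.28, adjusted p = 0.969). IL10, an anti-inflammatory cytokine, had the largest positive value in the list, from a mean of 2.69 CPM to 4.94 CPM, with overlapping libraries (log2 fold change 0.85, adjusted p = 0.885). IL10 was called higher in both fits with the replicate number as a block, given below. LIF, of the interleukin-6 family, had the largest negative value (log2 fold change -0.72, adjusted p = 0.863).

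**Figure D3:**
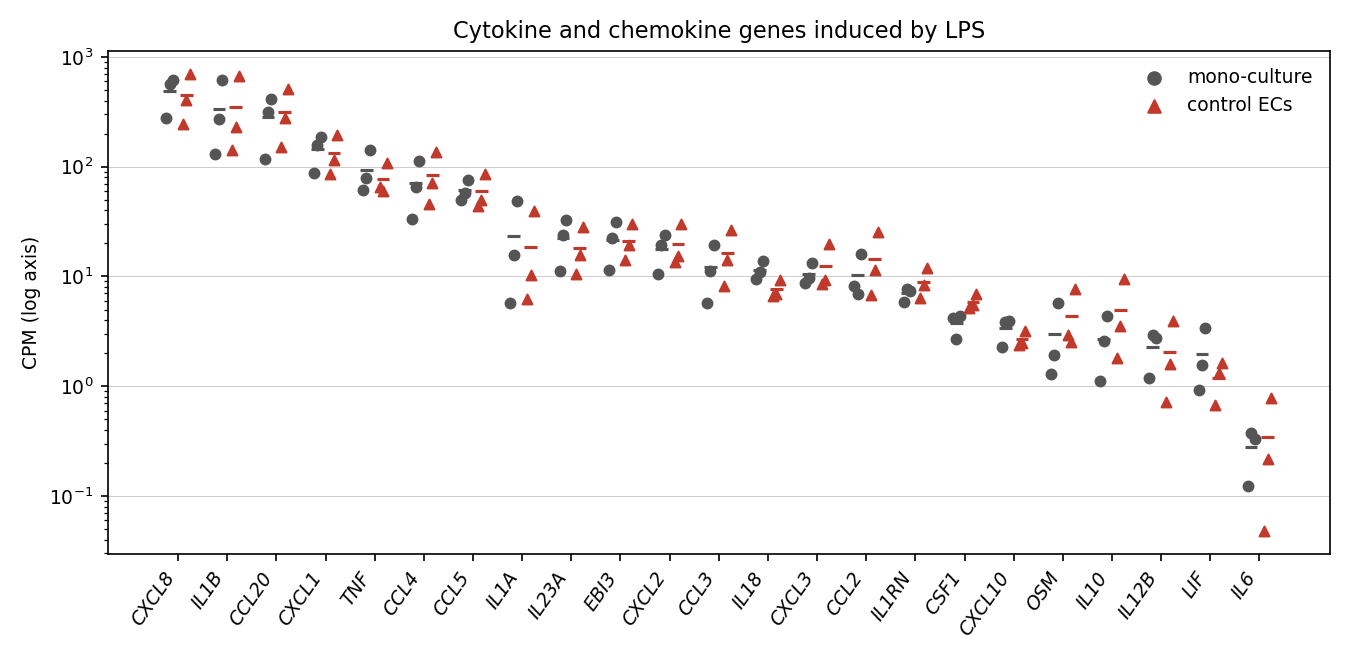
Level of the 23 tested cytokine and chemokine genes in the 3 mono-culture (grey circles) and 3 control EC libraries (red triangles), in CPM on a log axis, ordered by mean in mono-culture, with short lines at group means. In 21 genes the groups overlap, as they do in 22572 of all 25873 genes tested.

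The sensing and signalling genes upstream of these cytokines were steadier. Among 29 genes of TLR4 and NF-κB signalling, 0 were called by edgeR, 2 were higher and 0 lower at an unadjusted p under 0.05, and the median log2 fold change was 0.09. For 25 of them the interval stayed within a 2-fold change. TLR4 was at 27.3, 31.1 and 33.4 CPM in mono-culture and at 22.7, 34.9 and 47.2 CPM with control ECs, and RELA and NFKB1 had log2 fold changes of 0.06 and 0.09. BCL3, an atypical inhibitor of NF-κB that is also a STAT3 target, was called by DESeq2 and narrowly missed in edgeR (adjusted p = 0.00193 and 0.0589).

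In the gp130 and STAT3 list, 1 of 25 genes was called, STAT3 itself. The median log2 fold change was 0.11. At an unadjusted p under 0.05, 8 genes were higher and 1 lower, against 821 and 866 of all 25873 genes tested. In 7 genes all co-culture libraries were above mono-culture (28.0% of the list, where 6.25% of all tested genes did so). In 1 gene, JAK2, they were all below, as in 6.51% of all tested genes. The 8 and the 7 both include STAT3. The share all above differed widely between lists. It was 39.3% for glycolysis and hypoxia, 23.1% for proliferation and 22.7% for monocyte markers. For the cytokines and the lysosome it was 4.35% and 3.03%. A share above 6.25% is therefore not particular to the gp130 and STAT3 list. The receptor genes IL6R and IL6ST did not pass (log2 fold changes -0.14 and 0.07), nor did the kinases JAK1 and JAK2 (-0.10 and -0.23). Genes known as STAT3 targets had values of both signs. Of MYC, CEBPD, BCL3, SOCS3 and PIM1, none passed edgeR's test. MYC and CEBPD were at log2 fold changes of -0.10 and -0.02, with overlapping groups. BCL3 was called by DESeq2 alone, as given above. SOCS3, the feedback inhibitor, was at 21.4, 34.9 and 50.8 CPM in mono-culture and at 38.2, 56.2 and 76.8 CPM with control ECs (log2 fold change 0.67, adjusted p = 0.764). PIM1 was at 18.5, 23.9 and 24.0 CPM in mono-culture and at 26.7, 38.9 and 32.7 CPM with control ECs (log2 fold change 0.56, adjusted p = 0.229). The groups overlapped for SOCS3 and not for PIM1. CEBPB, BATF and JUNB, also in the list, had their groups apart and log2 fold changes of 0.455, 0.539 and 0.404. They passed neither test (edgeR adjusted p = 0.285, 0.398 and 0.611). OSMR, the oncostatin M receptor, had the largest value in the list (log2 fold change 1.19, adjusted p = 0.477), and IL11 and IL6 were near the floor.

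Beside HSD11B1, no other gene of the 20 in the glucocorticoid response list was called (median log2 fold change 0.13). FKBP5, a sensitive target of the glucocorticoid receptor, was at 794.8, 689.5 and 819.4 CPM in mono-culture and at 848.8, 846.3 and 1025 CPM with control ECs. Its groups were apart, but it did not pass (log2 fold change 0.24, adjusted p = 0.752). TSC22D3, or GILZ, and PER1 had log2 fold changes of -0.13 and 0.00. CD163, a scavenger receptor, varied widely, at 5.28 to 21.9 CPM in mono-culture and 8.97 to 54.1 CPM with control ECs.

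CD1D was the called member of the CD1 and MHC class II list, in which 14 of 16 tested genes had negative values and the median log2 fold change was -0.46. Most members were low in this line. HLA-DRB1, the most abundant class II chain, was at 24.5, 35.2 and 37.8 CPM in mono-culture and 23.3, 24.9 and 32.2 CPM with control ECs (log2 fold change -0.28, adjusted p = 0.902), and CD74, the invariant chain, had a log2 fold change of -0.15. CIITA, the master regulator of class II genes, was positive at 0.16. Apart from CD1D no member had its groups apart, and 2 members were lower at an unadjusted p under 0.05.

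DNASE2 stood alone among the lysosomal genes. Of 33 tested it was the single call, the median log2 fold change was -0.12, and the interval stayed within a 2-fold change for 30. The proteases CTSD, CTSB and CTSL had log2 fold changes of 0.11, 0.28 and 0.19, and the enzymes LIPA and GAA of -0.20 and -0.19. In the complement list of 21 genes, CLU was the single call, with a median of -0.07. VSIG4, a receptor for C3 fragments, had the most negative value (log2 fold change -0.78, adjusted p = 0.782). SPP1 was the single edgeR call among 28 matrix and adhesion genes, with a median of 0.06, and DESeq2 called 3. ITGA4, the α4 chain of the integrin that binds endothelial VCAM1, was at 176.7, 163.1 and 157.5 CPM in mono-culture and at 214.4, 205.5 and 232.6 CPM with control ECs, apart and called by DESeq2 (adjusted p = 0.0439) but not by edgeR (log2 fold change 0.39, adjusted p = 0.27). SELPLG, the ligand of P-selectin, was at 11.8, 9.69 and 12.7 CPM in mono-culture and at 17.9, 22.6 and 21.5 CPM with control ECs, and was likewise called by DESeq2 (adjusted p = 0.0215) but not by edgeR (log2 fold change 0.86, adjusted p = 0.162).

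Interferon-response genes had the highest median of the lists, 0.34 on the log2 scale, with 22 of 30 positive. None was called by edgeR or by DESeq2, and 2 were higher and 0 lower at an unadjusted p under 0.05. In 5 (16.7%) all co-culture libraries were above mono-culture and in 0 all below, against 6.25% and 6.51% of all genes. MX1, an antiviral GTPase, was at 4.66, 2.96 and 5.23 CPM in mono-culture and at 5.52, 5.97 and 10.2 CPM with control ECs (log2 fold change 0.75, adjusted p = 0.806). LAP3 and PARP9 are not in this list. The median of the list stayed positive under every alternative setting, from 0.09 to 0.42.

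Few genes of metabolism and growth were called. Of 28 glycolysis and hypoxia genes, SLC2A1 was the single call. The median was 0.17, and 11 genes (39.3%) had all co-culture libraries above mono-culture, against 6.25% of all genes. HK2, hexokinase 2, was at 32.6, 28.7 and 32.0 CPM in mono-culture and at 41.7, 39.9 and 42.1 CPM with control ECs (log2 fold change 0.41, adjusted p = 0.407), and LDHA and GAPDH had log2 fold changes of 0.28 and 0.19. No gene of cholesterol and fatty acid synthesis was called among 30 (median 0.02, 4 higher and 2 lower at an unadjusted p under 0.05, DESeq2 0). None of 26 proliferation genes was called (median 0.11, 1 higher and 0 lower unadjusted, DESeq2 0), and for all 26 the interval stayed within a 2-fold change. Of the 26, 23 had positive values, against 13124 of all 25873 genes tested. In 6 (23.1%) all co-culture libraries were above mono-culture and in 0 all below, against 6.25% and 6.51% of all genes. The 13 protein-coding genes of mitochondrial DNA and the 11 reference genes had medians of 0.08 and -0.01.

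**Figure D4:**
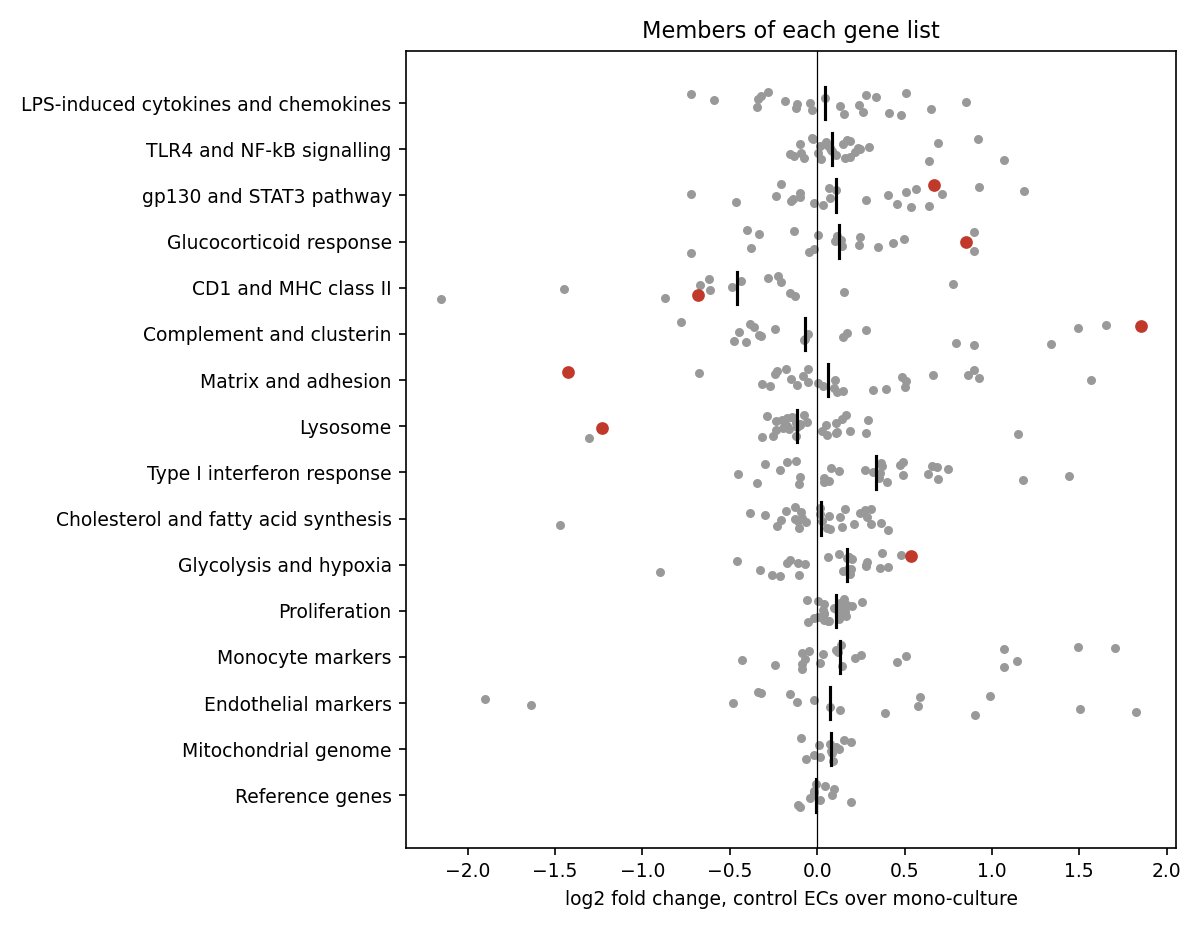
Log2 fold change, control ECs over mono-culture, of the tested members of 16 gene lists. Grey points did not pass the test, red points did, and black bars are list medians, which ran from -0.46 (CD1 and MHC class II) to 0.34 (type I interferon response).

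The called genes can also be followed in the co-cultures with senECs and EGCG-treated senECs. The values below were each set against the same control EC libraries, so these comparisons are not independent of the one above. POU2F2 was at 70.8, 68.2 and 53.8 CPM with senECs and at 74.4, 71.2 and 67.1 CPM with EGCG-treated senECs. Relative to control ECs its log2 fold change was 0.01 (95% interval -0.22 to 0.24) and 0.15 (-0.08 to 0.38). STAT3 was at 268.4, 279.4 and 268.6 CPM with senECs and at 242.5, 287.1 and 283.4 CPM with EGCG-treated senECs, with intervals against control ECs of -0.25 to 0.17 and -0.25 to 0.16. CLU reached 17.7, 28.9 and 24.0 CPM with senECs (log2 fold change against control ECs 0.34, interval -0.11 to 0.80). HSD11B1 was at 147.8, 172.0 and 178.1 CPM with senECs and at 139.8, 184.5 and 149.7 CPM with EGCG-treated senECs, with intervals of the log2 difference from control ECs of -0.16 to 0.37 and -0.23 to 0.30.

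Some genes lay between mono-culture and control ECs in the other co-cultures. The genes were called on these control EC values, which favours such a position, and the intervals reuse the same values. Neither can therefore show a difference between the co-cultures. NUPR1 was at 5.11, 4.57 and 6.22 CPM with senECs and at 5.61, 6.93 and 5.14 CPM with EGCG-treated senECs, every value above those with control ECs and below those of mono-culture. Its log2 fold change against control ECs was 0.48 (interval 0.07 to 0.90) and 0.64 (0.22 to 1.05), but the adjusted p was 0.728 and 0.979. ANTXR1 had 23.9, 27.4 and 25.2 CPM with senECs (log2 fold change against control ECs 0.36, interval 0.11 to 0.60, adjusted p = 0.728). With EGCG-treated senECs its log2 fold change against control ECs was 0.237 (interval -0.008 to 0.483, adjusted p = 0.979). AQP3 went the other way, with 5.99, 4.80 and 5.32 CPM with senECs, above all control EC libraries (log2 fold change 0.71, interval 0.22 to 1.21, adjusted p = 0.728).

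**Figure D5:**
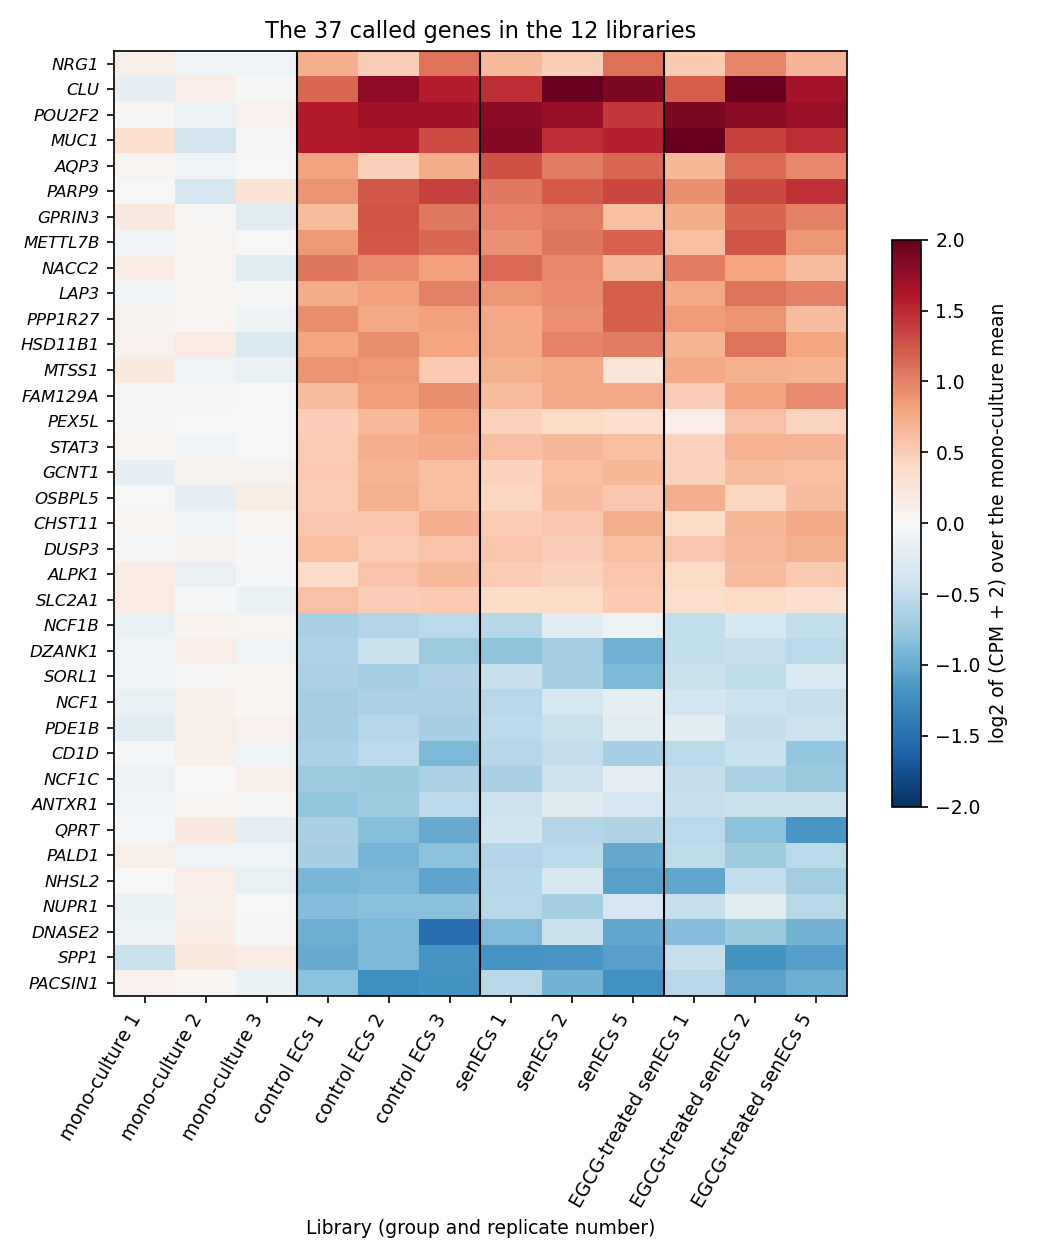
The 37 called genes (rows, ordered by log2 fold change) in all 12 libraries (columns, by group and replicate number), as log2 of CPM plus 2 over the mono-culture mean. The columns of the 3 co-cultures are shown for their levels only, since the genes were called in the comparison of control ECs with mono-culture.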

How the data were processed

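THP1 RNA was sequenced as messenger RNA in paired reads by Novogene, and per the labels the reads were aligned with HISAT2. The authors deposited whole-number read counts per gene symbol, without normalization, for 58735 genes. The counting program, its strand setting and the annotation are not given in the sources used here. The symbols all occur in GENCODE release 29 (GRCh38), which gave positions and exon lengths. Libraries were grouped by the sample labels, and 4 columns that match no described sample were not used.

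The test was edgeR 4.0.16 in R 4.3.3 (quasi-likelihood, TMM, Benjamini-Hochberg) over all 12 libraries with group as the only term, at an adjusted p of 0.05, for genes that summed to 10 counts or more. The study's tool, DESeq2 1.42.0, was an alternative. Standard errors are the log2 fold change over the square root of edgeR's F. FPKM is CPM per kilobase of merged exons. An exact permutation test of 3 against 3 libraries cannot go below p = 0.1. The fits were tested on simulated counts without a replicate effect, in which 200 genes were changed 2-fold. Of these, edgeR recovered 143, with 8 false calls, and DESeq2 146, with 15 false calls. With the replicate number as a block, edgeR recovered 147, with 18 false calls.

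The genes, lists and tests were chosen with earlier results of these data known. The rule for named genes took the 5 qPCR genes, up to 15 called genes per direction averaging 1 CPM or more without overlap, the called and most changed members of each list, and cell type markers. Gene lists were written by hand from textbook roles and describe only, with no set test. Other filters, size factors, 6 libraries, a replicate term and leaving out each library were tried.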

Additional observations from a re-analysis of the deposited data

How the results depend on the processing

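The number of called genes depended on the setting. Against 37 (22 higher, 15 lower), DESeq2 called 120 (60 higher, 60 lower), edgeR without a filter on low counts 223 (129 and 94), and a fit of only the 6 libraries compared 68 (33 and 35). The cause of these differences was not tested. DESeq2's size factors gave 37, at least 10 counts in every library 34, and edgeR's own filter 33. Each library left out in turn gave 11 to 48 called genes, 11 to 28 higher and 0 to 20 lower, lowest without mono-culture replicate 2 and highest without senEC replicate 5. Without control EC replicate 1, 2 or 3 the counts were 20, 14 and 20, and without mono-culture replicate 1 or 3 they were 33 and 17.

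Mono-culture and control EC libraries share the replicate numbers 1, 2 and 3, and nothing in the labels says what a number marks. Deviations from the group means correlated at 0.409, 0.077 and 0.349 for the same-numbered libraries. Not all were above 0.1, so the numbers were not taken to pair the samples. Any spread that goes with the numbers, such as that of IL1B above, therefore stayed in the error of the main fit. The 37 calls and the intervals given above hold for that fit. Mono-culture replicate 2 correlated best with control EC replicate 3 (0.089), and replicates 1 and 3 with their own number. With the replicate number as a block, 469 genes were called in 12 libraries (224 higher, 245 lower) and 647 in 6 libraries (302 and 345), in both cases including all 37. The log2 fold change of IL6 was then -0.033 and -0.017. Of the 41 named genes without a call, 19 were called in both of these fits, higher for BCL3, CD14, CD163, IL10, MX1, S100A8, MMP9, ACACA, SBNO2, TBC1D14, HRH2 and NNMT and lower for CSF1R, VSIG4, DAPK1, GALM, GPNMB, VSIG2 and AXL. Fold changes per pair of libraries were not computed, since no pairing was taken.

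No called gene changed direction under any setting run. Genes without a call did so when 1 library was left out. Their log2 fold changes ranged from -0.13 to 0.045 for TOP2A, -0.59 to 0.19 for CXCL8, -0.85 to 0.80 for IL1B, -0.09 to 1.32 for CD163, -0.789 to 0.056 for IL23A, -0.002 to 1.38 for IL10, -0.99 to 0.23 for IL12B, -0.58 to 0.22 for VWF, -0.61 to 1.42 for ANGPT2 and -1.01 to 0.80 for IL6. The median over the cytokine list ranged from -0.40 to 0.39, and the medians of the qPCR genes and of the complement, matrix, cholesterol, endothelial and reference lists also took both signs. The other lists kept theirs. With 3 libraries a group and no replicate term, changes of such variable genes that lie inside their intervals could not be seen. CD163 and IL10 were called higher in both fits with the replicate number as a block, as given above.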

Other observations

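DESeq2 called 83 genes that edgeR did not, 38 higher and 45 lower with control ECs, and in 81 of them the groups did not overlap. Among all tested genes, 6.25% had the co-culture libraries all above and 6.51% had them all below. Since these 83 genes were picked by a low p from the same values, the lack of overlap adds no support to them. The 5 in each direction with the lowest edgeR p are given here, a rule written after their values were seen. Higher were TBC1D14, a regulator of autophagy (mean 31.5 CPM in mono-culture and 48.4 CPM with control ECs), BCL3 (67.1 and 104.8 CPM), HRH2, a histamine receptor (18.2 and 31.8 CPM), NNMT, nicotinamide N-methyltransferase, and SBNO2, a regulator induced by interleukin-10 (130.4 and 180.9 CPM). NNMT had 6, 4 and 3 counts in the mono-culture libraries and 27, 39 and 99 counts with control ECs, for a log2 fold change of 3.47 (DESeq2 adjusted p = 0.000161, edgeR adjusted p = 0.0589).

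Lower were AXL, a receptor tyrosine kinase for apoptotic cell uptake (9.45 and 3.88 CPM), DAPK1, a kinase of cell death (56.3 and 40.6 CPM), GALM, galactose mutarotase (42.8 and 29.7 CPM), VSIG2 (10.4 and 5.66 CPM) and GPNMB, a membrane glycoprotein of lysosome-rich macrophages (12.3 and 6.00 CPM). AXL was at 8.46, 9.15 and 10.7 CPM in mono-culture and at 4.65, 3.47 and 3.50 CPM with control ECs (log2 fold change -1.28, DESeq2 adjusted p = 0.00193, edgeR adjusted p = 0.0584). The edgeR adjusted p of the other 8 genes lay between 0.0531 and 0.0917.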
